A study of Homo sapiens with 30 samples.

Results

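The 9 genes described here are the 4 members of the CLK family of protein kinases (CLK1, CLK2, CLK3 and CLK4) and 5 other genes (PNISR, NKTR, LUC7L, LUC7L3 and OGT) whose transcripts are known to keep introns and to be held in the nucleus. They were listed by name, as genes known for detained introns, and all 9 were found among the 27630 genes of the count tables. The choice was made with earlier results of these data known, so their shares beside all genes are descriptions and not a test. RNA was counted per gene in HEK293FT cells, a transformed line of human embryonic kidney origin, in 8 libraries. They made up 4 groups of 2: RNA of the nuclear fraction, RNA of the cytosolic fraction, and RNA labelled at the nuclear lamina either in native form or after fixation with paraformaldehyde (PFA). All 8 libraries, the fractions included, came from asynchronous cells transfected by Lipofectamine 2000 with APEX2 fused to lamin B1, a peroxidase that tags molecules near the protein layer under the inner nuclear membrane. The expression was therefore transient and from a construct, and no library of untransfected or unlabelled cells is among the 8. RNA was extracted with Trizol and depleted of ribosomal RNA. The labels do not say that the 2 libraries of a group came from separate cultures, so p-values measure only the spread between these libraries, which may be technical. Lists of lamina-associated domains in HCT116, a colorectal carcinoma line, gave the position of the 9 genes relative to the lamina in G1, S and G2.

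CLK kinases are dual-specificity kinases of the nucleus that phosphorylate SR proteins, the serine- and arginine-rich factors that help choose splice sites. A detained intron is one that stays in an otherwise spliced and polyadenylated transcript, and such transcripts remain in the nucleus until the intron is removed or the RNA is degraded. The CLK1 transcript is a well-known case, in which splicing of the detained introns follows heat stress or loss of CLK activity, and the OGT transcript keeps an intron whose removal follows the cell's level of O-GlcNAc, the sugar that OGT attaches to proteins. LUC7L and LUC7L3 are associated with the U1 snRNP, which recognises the start of an intron. PNISR is a serine- and arginine-rich protein of nuclear speckles, and NKTR is a large cyclophilin with a serine- and arginine-rich tail.

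The counts give 1 value per gene and do not separate spliced from unspliced transcripts, so no intron was measured. The annotation does show which introns the counts take in. A retained intron was taken as annotated where 1 exon contains 2 other exons that do not overlap each other, and 4 of the 9 genes had at least 1. CLK1 lies on the minus strand of chromosome 2 at 201717732 to 201729467 (hg19), and the region has 3794 exonic bases in 12 merged blocks. Its 2 annotated retained introns, at 201724470 to 201724847 and at 201724939 to 201725960, hold 378 and 1022 bases, or 36.9% of the exonic length together. In LUC7L (chromosome 16, 238968 to 279481, minus strand) such sequence took 628 bases, 19.7% of 3182 exonic bases. In LUC7L3 (chromosome 17, 48796905 to 48833574, plus strand) it took 1558 bases, 22.1% of 7040. In PNISR (chromosome 6, 99845927 to 99873221, minus strand) it took 952 bases, 10.9% of 8730. Reads from these introns are part of the gene's count, whereas reads from other introns are not.

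The remaining 5 genes had no annotated retained intron. These were CLK2 (chromosome 1, 155232659 to 155243320, minus strand), CLK3 (chromosome 15, 74900713 to 74922542, plus strand), CLK4 (chromosome 5, 178029665 to 178054054, minus strand), NKTR (chromosome 3, 42642147 to 42690233, plus strand) and OGT (chromosome X, 70752912 to 70795747, plus strand). Over all 23171 genes of at least 2 exon blocks, 1095 (4.73%) had one. Strand was ignored in the counting and a read was given to every gene it overlapped, so shared exonic sequence adds to both genes. PNISR shares 122 exonic bases with LOC101927365, which held 22 to 140 counts per library, and NKTR shares 81 with SEC22C, which held 101 to 599.

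The start regions of the 4 CLK genes are shown so that the family can be compared where its transcripts begin. Each is the 120 bases before the most upstream RefSeq start in the GRCh38.p14 table, written 5′ to 3′ on the gene's strand, with capitals marking TGACG or its reverse complement CGTCA, the core letters of the cAMP response element.
CLK1: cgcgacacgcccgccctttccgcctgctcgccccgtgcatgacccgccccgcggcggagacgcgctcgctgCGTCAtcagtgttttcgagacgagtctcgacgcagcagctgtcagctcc
CLK2: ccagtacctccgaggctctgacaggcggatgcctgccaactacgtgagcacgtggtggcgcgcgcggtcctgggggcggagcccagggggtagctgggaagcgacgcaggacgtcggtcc
CLK3: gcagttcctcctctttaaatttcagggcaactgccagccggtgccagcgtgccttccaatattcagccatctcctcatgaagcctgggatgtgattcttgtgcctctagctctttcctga
CLK4: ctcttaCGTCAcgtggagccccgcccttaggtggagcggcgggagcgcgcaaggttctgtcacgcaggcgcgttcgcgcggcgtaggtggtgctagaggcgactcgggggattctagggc
In the order given, these are chr2:200864659-200864778 (minus strand), chr1:155273505-155273624 (minus), chr15:74608252-74608371 (plus) and chr5:178627051-178627170 (minus). The letters stood in the windows of CLK1 and CLK4 and not in those of CLK2 or CLK3, although each of CLK1 and CLK3 has a further start, whose window held the letters for CLK3 and lacked them for CLK1. All 9 genes matched the table, and the windows of PNISR, NKTR, LUC7L, LUC7L3 and OGT did not hold the letters. Over all 35116 windows of this length 13.3% held them. No other motif was searched, and no readout of this series bears on these start regions.

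Total counts ran from 2321291 (PFA lamina replicate 2) to 8557777, and levels are given as CPM (counts scaled to library size, here with TMM factors). Of the HEK293 marker list, 4 of 7 genes were over 3 counts in all 8 libraries (summed level 68.4 to 334.8 CPM), although PAX8 was at 0 in most of them. The K562 list summed to 0 to 1.84 CPM, with 4 of 5 genes at 0 throughout, among them the globin genes HBG1, HBG2 and HBE1. The HCT116 list summed to 33.5 to 60.5 CPM, and outside the nuclear fraction CDX2 was the largest part of it. LMNB1, the gene of the transfected fusion, stood at 3231 to 6382 CPM in the fractions and at 26168 to 96237 CPM in the lamina libraries. CPM is a share of a library, so less transcript of a gene and more RNA of other genes cannot be told apart.

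Between nuclear and cytosolic RNA, 7 of the 9 genes were higher in the nuclear fraction and none was lower (edgeR's quasi-likelihood test, adjusted p under 0.05). Over all 16504 genes tested, 26.1% were called higher and 21.2% lower. The median log2 fold change of the 9 genes was 1.46, beside 0.13 over all genes tested. The largest differences were those of LUC7L3, LUC7L and PNISR, at 4.50- to 5.27-fold. CLK3 went against the label of a nuclear-detained mRNA, with a cytosolic mean above the nuclear one and overlapping libraries.

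Among the kinases, CLK1 was at 72.2 and 112.5 CPM in the nuclear libraries and at 22.7 and 44.6 CPM in the cytosolic ones. Both nuclear libraries lay above both cytosolic ones, and the difference of 1.46 on the log2 scale (SE 0.39, 2.76-fold) passed the test with an adjusted p of 0.00832. CLK4, the least abundant of the family, had 87 and 96 counts (13.5 and 16.5 CPM) in the nuclear libraries and 44 and 40 counts (5.88 and 8.46 CPM) in the cytosolic ones. Its groups did not overlap either, and the nuclear fraction was higher by 1.08 (SE 0.40, adjusted p = 0.0408). CLK2 stood at 54.0 and 86.4 CPM in nuclear and at 37.4 and 41.4 CPM in cytosolic RNA. These libraries were separate too, but the log2 difference of 0.83 (SE 0.36) missed the threshold, with an adjusted p of 0.0731. CLK2 passed it with upper-quartile factors (adjusted p = 0.0282), with no filter (0.0442), with at least 10 counts in every library (0.0321), with only the 4 libraries compared (0.0159) and without either PFA library (0.0280 and 0.0206). A row for the processed copy CLK2P1 averaged 12.3 CPM in nuclear and 13.8 CPM in cytosolic RNA (log2 difference -0.16, adjusted p = 0.744), and reads may be split between such copies. CLK3 stood at 52.5 and 62.7 CPM in nuclear and at 52.4 and 89.4 CPM in cytosolic RNA. Its log2 difference of -0.30 (SE 0.34, adjusted p = 0.482) became 0.11 without cytosolic replicate 2.

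The make-up of the family was compared per length (CPM per kb of exonic sequence). The CLK1 length of 3794 bases includes 1400 bases of annotated retained intron, whereas CLK2, CLK3 and CLK4 have no such sequence. For CLK1 transcripts without those introns, this length understates the level beside the other kinases. CLK1 made up 27.9% and 30.1% of the summed CLK level in the nuclear libraries and 13.4% and 17.6% in the cytosolic ones. CLK3 took 27.9% and 23.1% of the nuclear sum and 42.7% and 48.8% of the cytosolic sum. In the nuclear libraries the ratio of CLK1 to CLK3 was 0.998 and 1.30, and in the cytosolic libraries it was 0.314 and 0.362. That ratio lay between the fractions in all 4 lamina libraries, at 0.860 and 0.872 in the native and 0.734 and 0.787 in the PFA preparation. CLK4 took 4.53% to 12.7% of the sum, and the highest and a low value of it (12.7% and 4.83%) came from the 2 PFA libraries. With 2 libraries against 2, a two-sided exact permutation test cannot give a p below 0.333, so these shares are given without a test.

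**Figure D1:**
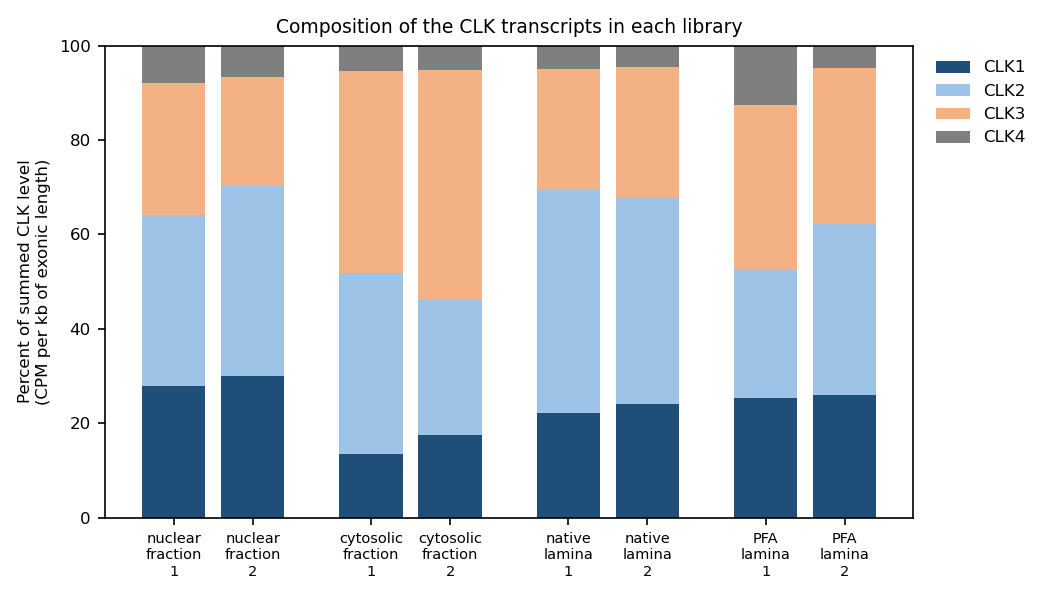
Stacked bars show, for each of the 8 libraries on the x axis, the percent of the summed level of the 4 CLK transcripts (CPM per kb of exonic length) that each kinase took. CLK3 took 42.7% and 48.8% in the cytosolic libraries and 23.1% to 34.6% in the other 6, while CLK1 took 13.4% and 17.6% in the cytosolic libraries and 22.1% to 30.1% elsewhere. The length of CLK1 alone includes annotated retained introns.

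The 4 other RNA-processing genes showed the widest gap between the fractions. LUC7L3 was at 300.7 and 353.1 CPM in nuclear and at 46.7 and 77.6 CPM in cytosolic RNA, a log2 difference of 2.40 (SE 0.35, adjusted p = 6.90e-04). LUC7L was at 121.1 and 159.6 CPM against 29.7 and 29.0 CPM, a difference of 2.26 (SE 0.31, adjusted p = 6.24e-04). The cytosolic LUC7L libraries were close together, at a mean of 29.3 CPM with an SD of 0.504. PNISR stood at 242.3 and 323.2 CPM in the nuclear libraries and at 53.2 and 72.5 CPM in the cytosolic ones, a difference of 2.17 (SE 0.34, adjusted p = 8.01e-04). NKTR stood at 197.7 and 212.7 CPM against 75.1 and 55.4 CPM, a difference of 1.65 (SE 0.29, adjusted p = 0.00116). For each of these 4 genes every nuclear library was above every cytosolic one. OGT, the O-GlcNAc transferase, was at 346.6 and 392.6 CPM in nuclear and at 176.9 and 162.6 CPM in cytosolic RNA. Its difference of 1.12 (SE 0.40, adjusted p = 0.0326) was close in size to that of CLK4.

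In 8 of the 9 genes both nuclear libraries lay above both cytosolic ones, as they did in 42.5% of all genes tested. PNISR, NKTR, LUC7L and LUC7L3 kept their calls in all 17 alternative settings, with log2 differences from 1.43 to 2.79. The calls of the other 3 rested on single libraries: CLK1 lost its call without nuclear replicate 2 (1.09, adjusted p = 0.0792) or cytosolic replicate 1 (1.03, adjusted p = 0.0993), OGT without any 1 of the 4 fraction libraries (log2 differences all above 1, adjusted p from 0.0833 to 0.151) and CLK4 without any 1 of the fraction or native lamina libraries (0.81 to 1.33, adjusted p from 0.0609 to 0.229). CLK4 also missed the threshold by DESeq2 (1.08, adjusted p = 0.0555) and with no filter (1.03, adjusted p = 0.0585), and OGT with scaling by total counts (1.12, adjusted p = 0.0541). The share of all genes called higher moved as well, from 14.3% without nuclear replicate 1 to 30.8% without PFA replicate 2.

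**Figure D2:**
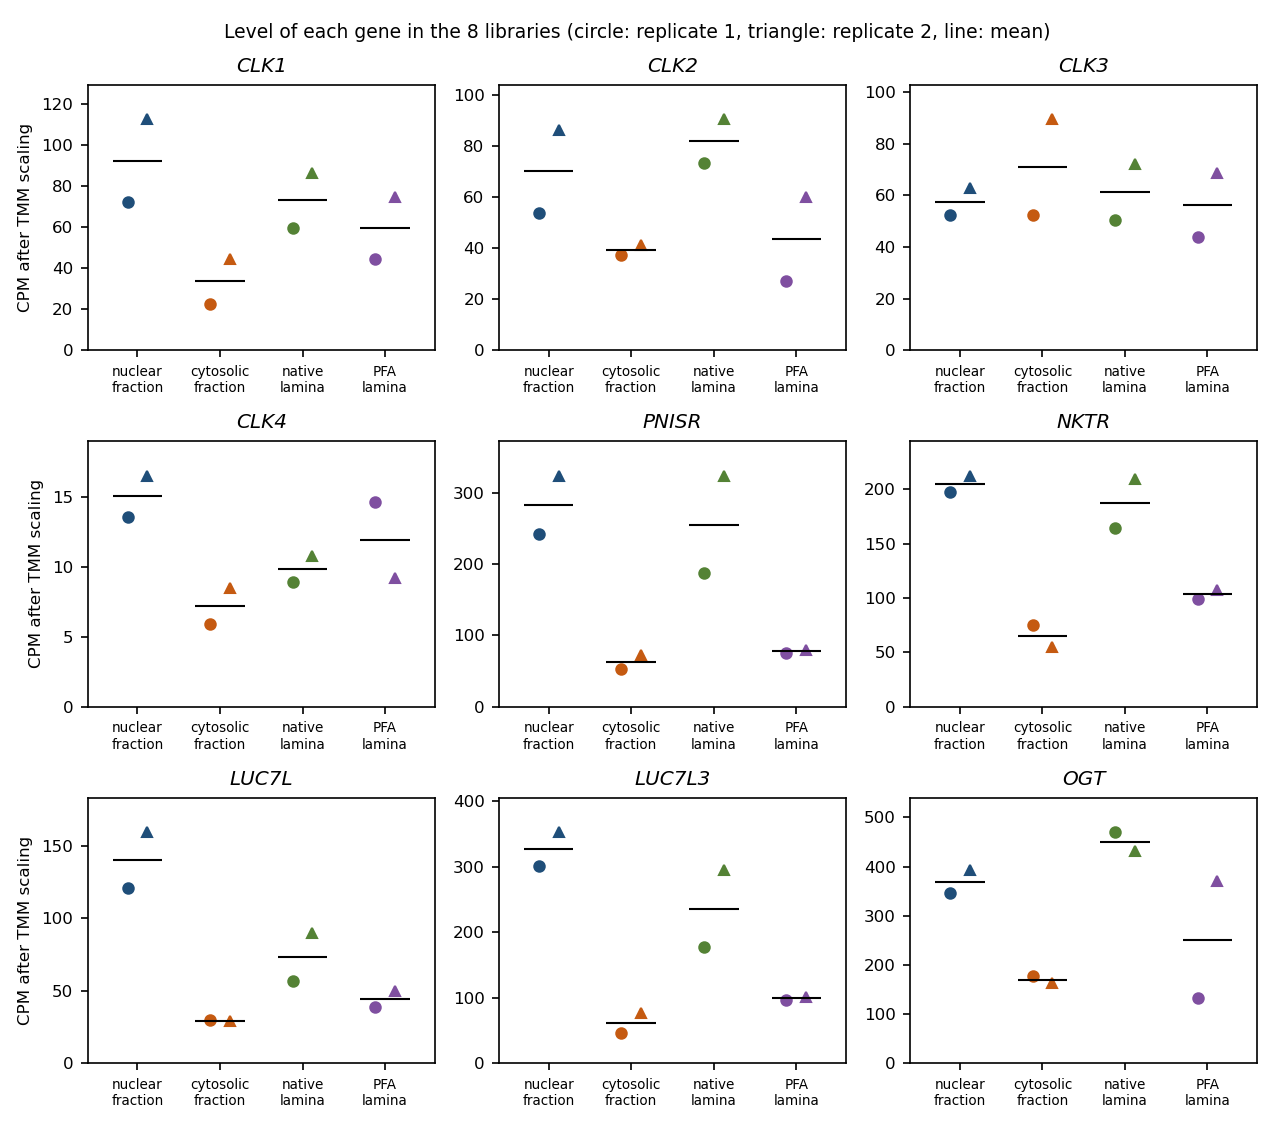
Each panel plots the level of 1 gene (CPM after TMM scaling, y axis from 0) in the 4 groups, with a circle for replicate 1, a triangle for replicate 2 and a line at the mean. Nuclear points stand above cytosolic points in every panel but that of CLK3, and the native points of PNISR and LUC7L3 lie above their PFA points.

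Genes with an annotated retained intron were set beside those without. Among the 9, the 4 genes that had one (CLK1, PNISR, LUC7L and LUC7L3) had nuclear-minus-cytosolic log2 differences of 1.46 to 2.40 with a median of 2.21, and the other 5 had -0.30 to 1.65 with a median of 1.08. Over all genes the shares were close: of 939 tested genes with such an intron 25.2% were called higher in the nuclear fraction (median 0.15), and of 14270 without one 25.1% were (median 0.09). The part of intronic reads in the counts of CLK1, PNISR, LUC7L and LUC7L3 was not tested.

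Per kb of exonic length, OGT had the highest nuclear level of the 9 (67.4 ± 5.93, SD, n = 2) and CLK4 the lowest (5.99 ± 0.833). Between them came LUC7L3 (46.4 ± 5.26), LUC7L (44.1 ± 8.56), PNISR (32.4 ± 6.55), CLK2 (32.2 ± 10.5), NKTR (27.9 ± 1.45), CLK1 (24.4 ± 7.51) and CLK3 (20.9 ± 2.64). Each neighbour in that middle run overlapped the next in mean ± SD, whereas OGT and CLK4 lay outside it. In the cytosolic fraction OGT (31.0 ± 1.84), CLK3 (25.8 ± 9.52) and CLK2 (18.1 ± 1.30) came first and overlapped in their spread from one to the next. A second run held LUC7L (9.22 ± 0.158), CLK1 (8.88 ± 4.08), NKTR (8.87 ± 1.90), LUC7L3 (8.83 ± 3.11) and PNISR (7.20 ± 1.56), whose neighbours could not be told apart, and CLK4 was last (2.86 ± 0.726). CLK3 was thus eighth in level in nuclear RNA and next to the top in cytosolic RNA. The lengths of CLK1, PNISR, LUC7L and LUC7L3 include their annotated retained introns (10.9% to 36.9% of the length). For transcripts without those introns the level per kb is understated, here and at the lamina.

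At the native lamina the same order began with OGT (82.2 ± 5.00 CPM per kb) and CLK2 (37.7 ± 5.56) and ended with CLK1 (19.3 ± 4.98) and CLK4 (3.93 ± 0.513). LUC7L3 (33.6 ± 11.8), PNISR (29.3 ± 11.1), NKTR (25.4 ± 4.32), LUC7L (23.2 ± 7.39) and CLK3 (22.2 ± 5.52) stood between, and neighbours from CLK2 down to CLK1 overlapped in their spread. At the PFA lamina OGT varied most (45.9 ± 30.6). It was followed by CLK3 (20.5 ± 6.43), CLK2 (20.03 ± 10.6), CLK1 (15.7 ± 5.65), LUC7L3 (14.2 ± 0.454), NKTR (14.1 ± 0.769), LUC7L (13.9 ± 2.45), PNISR (8.89 ± 0.419) and CLK4 (4.75 ± 1.52). Neighbours from OGT to LUC7L overlapped there, and PNISR and CLK4 each stood apart from the gene above.

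Native lamina RNA was compared with the nuclear fraction to ask how RNA labelled at the lamina differs from nuclear RNA at large. None of the 9 genes was called in either direction by edgeR, beside 3.87% of all genes called higher and 3.44% called lower, and 1 of the 9 had an unadjusted p under 0.05. The median log2 difference was -0.15 (all genes -0.07). The gene with that p was LUC7L, at 57.1 and 90.3 CPM in the native libraries against 121.1 and 159.6 CPM in the nuclear ones. By unadjusted p (0.00799) LUC7L ranked 1895 among all 16504 genes. All native values of LUC7L were below the nuclear ones, and the difference of -0.93 (SE 0.30) had an adjusted p of 0.0696. It passed the threshold by the Wald test of DESeq2 (-0.95, adjusted p = 0.0405), where it was the only one of the 9 called, beside 4.87% of the 15864 genes to which DESeq2 gave an adjusted p. It also passed with at least 10 counts in every library (adjusted p = 0.0464), with only the 4 libraries compared (adjusted p = 0.0351) and without either PFA library (adjusted p = 0.0272 and 0.0259). The share of all genes called lower ran from 0.0531% without nuclear replicate 1 to 12.6% without PFA replicate 2.

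LUC7L3 was at 177.5 and 295.1 CPM at the native lamina, a difference of -0.47 (SE 0.33, adjusted p = 0.366) from nuclear RNA. PNISR had 187.1 and 324.0 CPM there, on both sides of its nuclear libraries, and its difference of -0.15 (SE 0.32) became 0.15 with scaling by total counts alone. NKTR had 164.8 and 209.7 CPM, and its difference of -0.13 (SE 0.28) likewise became 0.15 with that scaling. CLK1 had 59.8 and 86.5 CPM and a difference of -0.34 (SE 0.37), and CLK4 had 8.94 and 10.8 CPM and a difference of -0.61 (SE 0.39). CLK4 was lower in both native libraries than in both nuclear ones, from 86 and 73 counts. OGT, at 469.9 and 431.1 CPM, was above both nuclear libraries, by 0.29 (SE 0.39, adjusted p = 0.663). CLK2 (73.5 and 90.6 CPM, 0.22, SE 0.36) and CLK3 (50.4 and 71.9 CPM, 0.09, SE 0.33) overlapped with their nuclear libraries. In all, the native libraries were separate from and below the nuclear ones in 3 genes and above them in 1, against 35.1% and 28.2% of all genes.

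Against the cytosolic fraction, 5 of the 9 genes were higher at the native lamina and none was lower, beside 6.99% of all genes called higher and 6.77% lower. PNISR differed by 2.02 on the log2 scale (SE 0.34, adjusted p = 0.00620), LUC7L3 by 1.93 (SE 0.34, adjusted p = 0.00714), NKTR by 1.52 (SE 0.29, adjusted p = 0.00835), OGT by 1.41 (SE 0.40, adjusted p = 0.0345) and LUC7L by 1.33 (SE 0.31, adjusted p = 0.0164). The median of the 9 was 1.33, beside 0.10 over all genes. CLK1 (1.13, SE 0.38, adjusted p = 0.0661) and CLK2 (1.06, SE 0.36, adjusted p = 0.0671) lay just outside the threshold with separate libraries, CLK4 differed by 0.47 (SE 0.40, adjusted p = 0.445) and CLK3 by -0.21 (SE 0.33, adjusted p = 0.695). In 8 of the 9 genes both native libraries were above both cytosolic ones, as in 35.8% of all genes. The count of calls fell to 1 without cytosolic replicate 1 or native replicate 2 and to 2 without cytosolic replicate 2, and rose to 7, with CLK1 and CLK2 added, without either PFA library. The gene left without cytosolic replicate 1 was NKTR, whose adjusted p was just under the threshold. CLK1 and CLK2 also passed by DESeq2 (adjusted p = 0.0404 and 0.0442). The share of all genes called higher ran from 0.283% without cytosolic replicate 1 to 13.2% without PFA replicate 2.

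Relative to the nuclear fraction 4 of the 9 genes were lower at the PFA lamina, the 4 with the widest gap between the fractions, and none was higher, beside 7.81% of all genes called lower and 9.63% higher. PNISR was at 75.0 and 80.2 CPM in the PFA libraries, a difference of -1.87 (SE 0.34, adjusted p = 0.00754) from nuclear RNA. LUC7L3 was at 97.4 and 101.9 CPM, a difference of -1.71 (SE 0.34, adjusted p = 0.00930). LUC7L was at 38.6 and 49.7 CPM, a difference of -1.67 (SE 0.31, adjusted p = 0.00795). NKTR was at 99.4 and 107.4 CPM, a difference of -0.99 (SE 0.28, adjusted p = 0.0320). The NKTR call was lost with scaling by total counts (-0.81, adjusted p = 0.106) and with only the 4 libraries compared (-0.99, adjusted p = 0.0765). It was also lost without PFA replicate 1, where the difference was -0.92. In these 4 genes the PFA libraries were below every nuclear library, as they were in 32.2% of all genes, and PNISR, LUC7L3 and NKTR varied little between the PFA libraries (SD 3.66, 3.19 and 5.66 CPM).

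The kinases and OGT varied more between the PFA libraries. Over all genes tested the PFA pair was also the least alike of the 4 groups (r of log2 CPM 0.911, beside 0.96 to 0.968). OGT was at 133.0 CPM in replicate 1 and 370.4 CPM in replicate 2, so that its difference from nuclear RNA was -0.56 (SE 0.39, adjusted p = 0.329) with both, -1.46 (adjusted p = 0.00488) without replicate 2 and 0.01 without replicate 1. CLK2 stood at 27.4 and 60.0 CPM (-0.70, SE 0.37, adjusted p = 0.188) and fell by 1.34 (adjusted p = 0.0100) when replicate 2 was left out. CLK1 stood at 44.4 and 74.7 CPM (-0.64, SE 0.38, adjusted p = 0.245), and CLK3 at 43.8 and 68.8 CPM (-0.04, SE 0.34, adjusted p = 0.945). CLK4 had 79 counts (14.6 CPM) in replicate 1 and 25 counts (9.20 CPM, 95% Poisson interval of the count 16.2 to 36.9, counting error only) in replicate 2, and its difference was -0.31 (SE 0.40, adjusted p = 0.603). The median of the 9 was -0.70 (all genes -0.04). Calls fell to 0 without nuclear replicate 1 and to 1 without nuclear replicate 2, where each lost difference stayed negative, and rose to 6 without PFA replicate 2. The share of all genes called lower was 0.0708%, 0.852% and 18.8% in those fits.

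Other transcripts moved along with these values. MALAT1, a nuclear non-coding RNA, was at 10962 and 16522 CPM in the nuclear and at 595.4 and 3079 CPM in the PFA libraries, and at 5456 and 12246 CPM in the native ones. NEAT1, another nuclear non-coding RNA, was at 1858 and 5094 CPM in the nuclear libraries. It was at 106.4 and 745.3 CPM in the PFA and at 749.8 and 1130 CPM in the native ones. Neither was called by edgeR between native and nuclear RNA (-0.63 for MALAT1, -1.89 for NEAT1, adjusted p = 0.538 and 0.103). Both were called lower in PFA than in nuclear RNA (-2.90 and -3.03, adjusted p = 0.0166 and 0.0193). ACTB, a cytosolic mRNA of the cytoskeleton, was at 389.7 and 369.6 CPM in nuclear, 2157 and 2099 CPM in cytosolic, 1144 and 980.2 CPM in native and 1244 and 747.5 CPM in PFA RNA. It was called higher than in nuclear RNA at the native (1.48, adjusted p = 0.0291) and the PFA lamina (1.39, adjusted p = 0.0204). GAPDH, at 257.3 and 728.6 CPM in nuclear and 1972 and 4960 CPM in cytosolic RNA, was at 650.8 and 782.9 CPM in native and 1021 and 556.6 CPM in PFA RNA, and was not called against nuclear RNA (0.54 and 0.68, adjusted p = 0.525 and 0.375). EEF1A1, at 166.4 and 242.9 CPM in nuclear and 614.4 and 997.6 CPM in cytosolic RNA, was at 252.4 and 291.7 CPM in native and 272.6 and 244.6 CPM in PFA RNA, and was not called either (0.41 and 0.34, adjusted p = 0.432 and 0.489). The fitted differences of all 3 cytosolic mRNAs from nuclear RNA were thus positive at both the native and the PFA lamina, and only those of ACTB were called. Between the PFA libraries, MALAT1 and 8 of the 9 genes were lower in replicate 1, and CLK4 was higher in it. Among the 8 was CLK3, whose cytosolic mean was above its nuclear one, and PNISR, LUC7L3 and NKTR differed little. The share of all genes lower in replicate 1 was not taken. The part of cytosolic RNA in the levels of the 9 genes at either lamina was not tested.

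No gene of the 9 was called between PFA lamina and cytosolic RNA by edgeR, beside 0.527% of all genes called higher and 0.145% lower, nor by DESeq2, and 1 had an unadjusted p under 0.05. That gene was NKTR, with 99.4 and 107.4 CPM against 75.1 and 55.4 CPM (0.66, SE 0.28, unadjusted p = 0.0359, adjusted p = 0.200). By unadjusted p NKTR ranked 2955 among all 16504 genes, and CLK1 (unadjusted p = 0.0533) ranked 3691. The differences ran from -0.34 for CLK3 to 0.82 for CLK1 with a median of 0.58 (all genes 0.08). In CLK4, PNISR, NKTR, LUC7L and LUC7L3 both PFA libraries were above both cytosolic ones, as in 25.2% of all genes. Without PFA replicate 1, OGT was called higher (1.07, adjusted p = 0.0308), in a fit that called 9.74% of all genes higher.

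Between the lamina preparations edgeR called none of the 9 genes, and 0.00% of all genes in either direction, so the fit had no call for any gene to be read against. Of the 9 genes, 5 had an unadjusted p under 0.05, and each was lower in the PFA libraries. OGT, just over that level (unadjusted p = 0.0507), ranked 1839 by p among all 16504 genes. PNISR was at 75.0 and 80.2 CPM in PFA and at 187.1 and 324.0 CPM in native RNA, a difference of -1.72 (SE 0.33, 3.29-fold). Its unadjusted p of 1.66e-04 was the eighth smallest of all 16504 genes, and its adjusted p was 0.257. LUC7L3 differed by -1.25 (SE 0.34, unadjusted p = 0.00250), CLK2 by -0.93 (SE 0.37, unadjusted p = 0.0240), NKTR by -0.86 (SE 0.28, unadjusted p = 0.00916) and LUC7L by -0.74 (SE 0.31, unadjusted p = 0.0295). OGT differed by -0.84 (SE 0.39, unadjusted p = 0.0507), CLK1 by -0.31 (SE 0.38), CLK3 by -0.13 (SE 0.34) and CLK4 by 0.30 (SE 0.40). The median was -0.84, beside 0.06 over all genes, and in 6 of the 9 both PFA libraries were below both native ones, as in 18.7% of all genes.

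DESeq2 called 3 of the 9 lower in PFA than in native RNA, PNISR (-1.75, adjusted p = 1.77e-04), LUC7L3 (-1.27, adjusted p = 0.0141) and NKTR (-0.88, adjusted p = 0.0496), beside 2.75% of the 6585 genes to which it gave an adjusted p. With edgeR and no filter on low counts PNISR (adjusted p = 2.37e-04) and LUC7L3 (adjusted p = 0.0222) were called, beside 0.630% of 23649 genes. Without PFA replicate 2, edgeR called PNISR, CLK2 and OGT lower, beside 2.51% of all genes. The 6 comparisons between groups share libraries, so the differences of a gene in one comparison and in the next are not independent of each other.

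**Figure D3:**
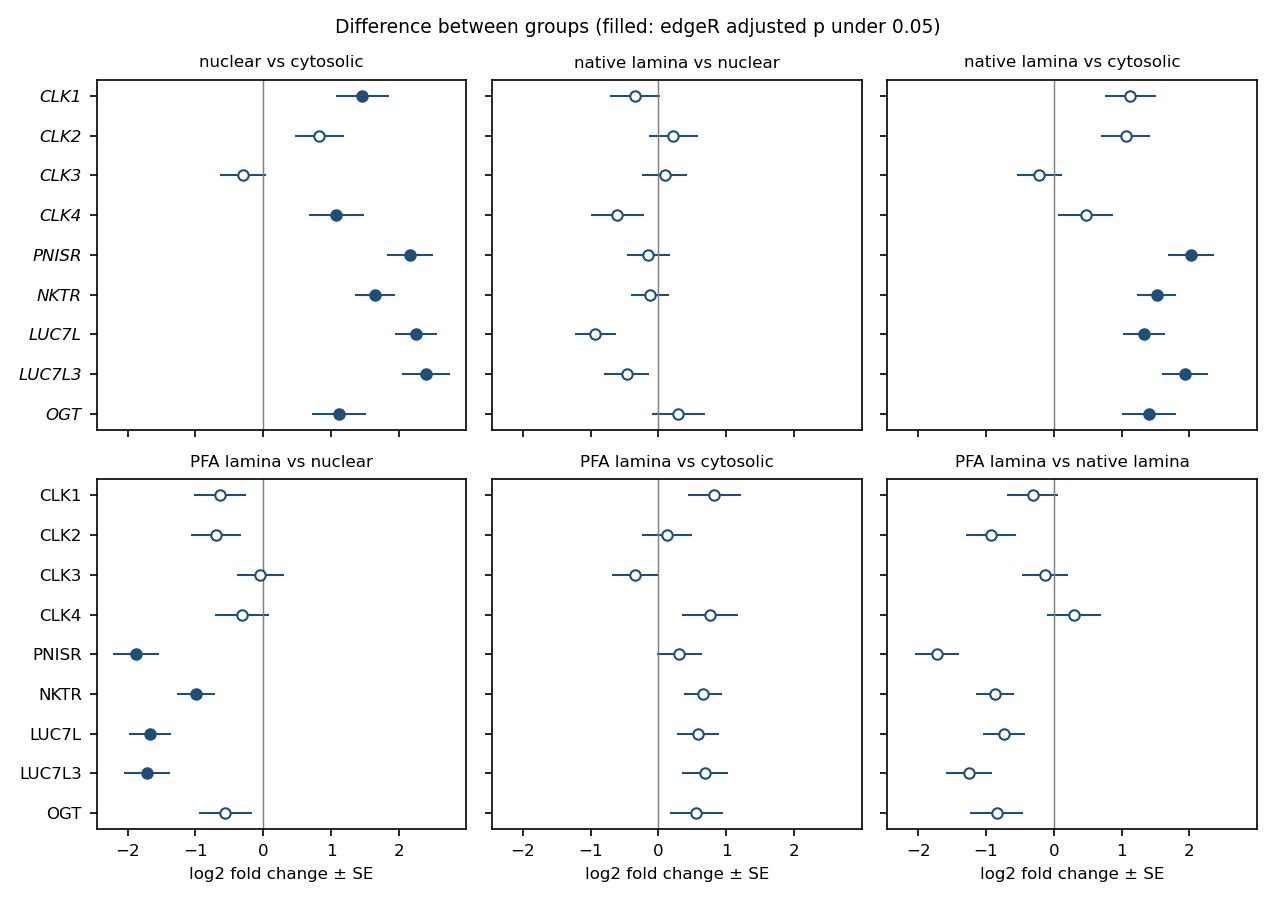
Each panel is 1 comparison, with the log2 fold change of the 9 genes on the x axis, bars of 1 SE and filled points where the edgeR adjusted p was under 0.05. Filled points appear to the right in nuclear against cytosolic (7) and native lamina against cytosolic (5), to the left in PFA lamina against nuclear (4), and in no other panel.

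A further 5 lists, also chosen with earlier results of these data known, set the 9 genes in the machinery around them. In the fits without 1 library the calls over all genes also moved, in both directions. For nuclear against cytosolic RNA only the share called higher is given above, and the ranges of both stand in the closing section. Changes of the list counts in those fits are therefore not read as traits of the lists. Of 23 other genes listed as splicing-related or intron-retaining transcripts, 15 were higher in the nuclear fraction than in the cytosolic one and none was lower. Over all genes tested 26.1% were called higher and 21.2% lower. The median log2 difference of the 23 was 1.03, beside 0.13 over all genes. A known retained intron was not required for this list. GABBR1, a receptor subunit for GABA, differed by 2.98 (77.7 against 9.92 CPM, adjusted p = 6.62e-04), RSRP1 by 2.78 (adjusted p = 0.00246), the cyclin CCNL2 by 2.52 (adjusted p = 9.95e-04) and LENG8 by 1.92 (adjusted p = 0.00559). The 8 not called included SON (-0.21) and DDX5 (0.13), a speckle scaffold protein and an RNA helicase, and SNRNP70 (-0.73), the U1-70K protein. At the native lamina 9 of the 23 were higher than in cytosolic RNA, beside 6.99% of all genes. None of the 23 differed there from nuclear RNA by the test, beside 3.87% of all genes called higher and 3.44% lower. At the PFA lamina 5 were lower than in nuclear RNA (MAT2A, RSRP1, RBM6, TAF1D and MDM4), beside 7.81% of all genes. The 15 became 10 without nuclear replicate 2 and 9 without cytosolic replicate 1. The 9 became 0, 4 or 3 without cytosolic replicate 1, cytosolic replicate 2 or native replicate 2. The 5 became 0 without either nuclear library, 1 without PFA replicate 1, 3 without either cytosolic library and 10 without PFA replicate 2. With all libraries kept, the 5 became 0 with only the 4 libraries compared and 1 with scaling by total counts, and 8 by DESeq2 and 9 with at least 10 counts in every library. Other settings also called up to 2 of the 23 higher and up to 3 lower at the native lamina than in nuclear RNA.

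Other kinases that act on splicing factors or are near relatives of CLK lay on both sides. Of 16, 3 were higher in nuclear RNA and 4 lower, with a median of -0.17, beside 26.1% and 21.2% of all genes. With upper-quartile factors 6 were higher and 2 lower, and of all genes 5248 and 2519 were. PRPF4B, a kinase of the spliceosome, differed by 1.79 (174.2 against 50.6 CPM, adjusted p = 0.00110) and CDK11A by 1.51 (adjusted p = 0.00478), a gene with a near-identical copy, CDK11B (0.48, adjusted p = 0.185), with which reads may be shared. SRPK3 averaged 10.2 CPM in nuclear and 0.746 CPM in cytosolic RNA. The latter was close to the level of 3 counts (0.412 and 0.517 CPM by total counts, without TMM factors). The fitted SRPK3 difference of 3.65 (adjusted p = 0.00418) thus depends on the prior count. The lower ones were SRPK1 (-0.87), the main cytosolic kinase of SR proteins, and HIPK1 (-1.14), HIPK2 (-0.93) and HIPK3 (-1.12), and these 4 calls became 0 without nuclear replicate 1 and 2 without any other 1 of the fraction libraries.

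Of the 14 SR and TRA2 proteins, which the CLK kinases phosphorylate or which resemble those targets, 5 were higher in nuclear RNA and 3 lower. Their median was 0.03, and of all genes 26.1% were called higher and 21.2% lower. SRSF6 differed by 1.29 (adjusted p = 0.0110) and SRSF1 by 1.18 (adjusted p = 0.0116), SRSF9 by -1.96 (adjusted p = 0.00123) and SRSF8 by -1.32 (adjusted p = 0.00426). The number called higher was 0 without nuclear replicate 2, 1 without either cytosolic library and 3 without nuclear replicate 1. Among 7 relatives and partners of the genes, 1 was higher and 2 were lower, beside the same shares of all genes, with a median of -0.65. MGEA5, which removes the sugar that OGT adds, was higher by 0.78 (290.0 against 168.9 CPM, adjusted p = 0.0475), a call that was lost without any 1 of the fraction or native lamina libraries, with scaling by total counts and with no filter. The U1 proteins SNRPC (-2.33, adjusted p = 0.00110) and SNRPA (-1.40, adjusted p = 0.00323) were lower, and 4 of the 7 were lower with only the 4 libraries compared or without PFA replicate 1. LUC7L2, the third gene of the LUC7-like family, was at -0.65 (102.3 against 160.8 CPM, adjusted p = 0.106), and PPIG, a cyclophilin built like NKTR, at -0.12 (adjusted p = 0.821).

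Of 15 genes of mRNA export and nuclear decay, 4 were higher in the nuclear fraction and 4 lower, with a median of -0.34. Over all genes 26.1% were called higher and 21.2% lower. NXF1, the main mRNA export receptor and itself known for a transcript with a retained intron, was higher by 2.20 (221.6 against 48.1 CPM, adjusted p = 0.00171), and ZFC3H1, a subunit of the complex that brings nuclear RNA to the exosome, by 1.45 (adjusted p = 0.00208). The export factors THOC7 (-2.21, adjusted p = 0.00374) and ALYREF (37.5 against 149.5 CPM, adjusted p = 0.00152) were lower. Without nuclear replicate 1 or cytosolic replicate 2 the calls in this list were 2 higher and 2 lower.

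**Figure D4:**
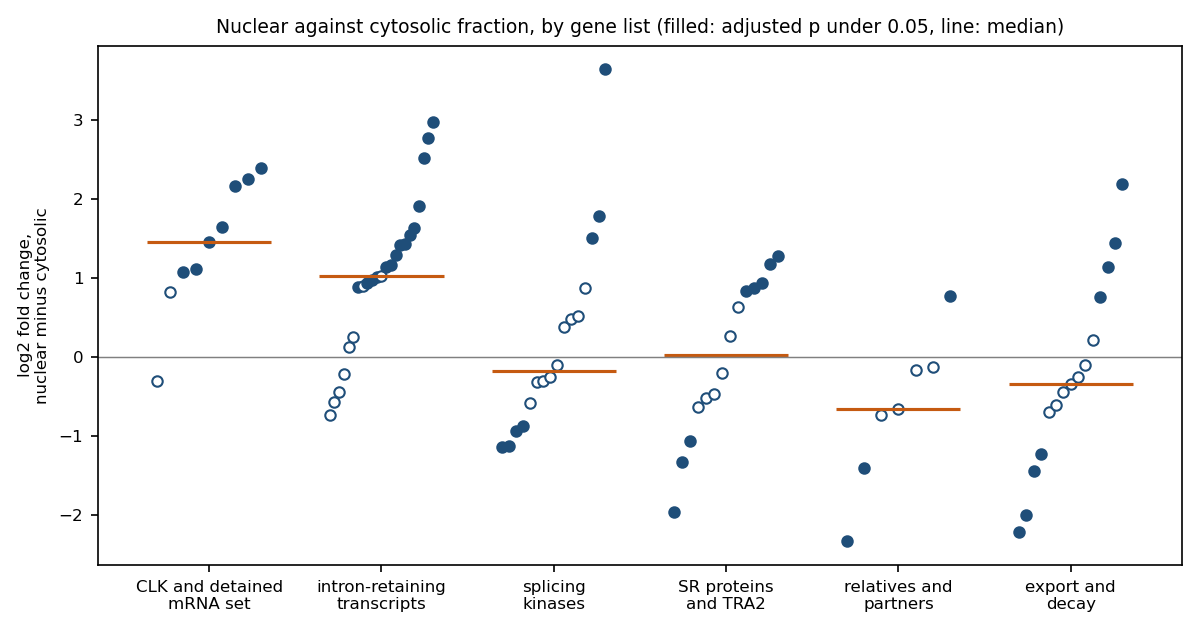
Points are genes of the 9-gene set and of the 5 other lists (x axis) by their log2 fold change of nuclear minus cytosolic RNA (y axis), filled where the adjusted p was under 0.05, with a line at each median. The medians of the 9 genes (1.46) and of the other splicing-related or intron-retaining transcripts (1.03) lie above 1, and those of the other 4 lists between -0.65 and 0.03.

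Across the 8 libraries the 9 genes followed each other to differing degrees. The log2 CPM of LUC7L3 correlated with the mean of the other 8 at r = 0.970, PNISR at 0.956, LUC7L at 0.933, NKTR at 0.912, CLK1 at 0.902, CLK2 at 0.828, OGT at 0.796 and CLK4 at 0.589, whereas CLK3 had an r of 0.037. These are descriptions over 8 libraries of 4 groups, which share depth, scaling and the split between the fractions. Of 11222 other genes with a mean of at least 50 counts, those whose profile was most like the mean of the 9 were ZGRF1 (r = 0.990), SAMD8 (0.983), MDM4 (0.982), RAB24 (0.981), CD46 (0.979), USP37 (0.979), PRPF4B (0.978) and TTC14 (0.976). MDM4 and PRPF4B also stand in the lists above. When 1 library was left out, 1 to 5 of these 8 genes remained among the 8 most alike. Those most like CLK1 alone were PRKCSH (0.985), TCIRG1 (0.985) and KIAA0907 (0.984), of which 0 to 2 remained.

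The position of the genes relative to the lamina was read from the domain lists of HCT116, whereas the RNA is from HEK293FT. None of the 9 genes overlapped a domain in G1 or S, beside 7.96% and 6.83% of all 27202 genes placed on 1 chromosome, and 1 did in G2, beside 9.54%. That gene was CLK4, which lay wholly inside a G2 domain of 1.20 Mb (chromosome 5, 177700001 to 178900000, hg19) and was 9.13 Mb from the nearest domain in G1 and 8.03 Mb in S. LUC7L3 had a domain 0.866 Mb away in each stage and OGT had 1 at 1.20 Mb (G1), 1.5 Mb (S) or 3.65 Mb (G2), and the other 6 were 2.96 to 12.4 Mb from one. Each stage is 1 consensus list without replicate values, so no error can be given for the appearance of the domain at CLK4.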

How the data were processed

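The deposited values are raw counts of reads for each gene symbol. The authors counted with featureCounts 1.5.2 on hg19 with a RefFlat annotation, per the file headers, without strand and with a read counted for each gene it overlapped. The submitters' processing notes name TopHat2 2.1.1, Bowtie2 2.3.2 and Subread 1.5.2, with no role given. The header of cytosolic replicate 1 carries the output name of a nuclear library but its own input name, and its label was followed. The deposited domain lists hold intervals with no score or other measured value. Their names call them an HMM (hidden Markov model) consensus, and the program behind them is not given in the sources used here.

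Counts of all 8 libraries were filtered with filterByExpr by group (16504 genes kept) and fitted once with edgeR 4.0.16 (R 4.3.3), TMM factors, 1 coefficient per group and no block. Each of the 6 contrasts was tested by quasi-likelihood and adjusted by Benjamini-Hochberg over all genes, with a call at an adjusted p below 0.05. Levels are CPM after TMM scaling, also per kb of exonic length. Likeness is Pearson's r of log2 CPM (prior count 2) over genes with a mean of at least 50 counts and 300 exonic bases. Within each list the 4 called genes with the largest change between the fractions were named, and other genes named from the lists were chosen after their values were seen. The fit was tested on simulated counts. The 9 genes and the lists were chosen with earlier results of these data known, and the lists carry no test. Alternatives were other scalings, filters, a replicate block, fits of 4 libraries, DESeq2 1.42.0, leaving out the LMNB1 row, and leaving out each library. The smallest library, PFA replicate 2, sets the coarsest level: 3 counts equal 1.29 CPM there and 0.351 to 0.517 CPM elsewhere, by total counts without TMM factors.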

Additional observations from a re-analysis of the deposited data

How the results depend on the processing

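Each of the 54 differences (9 genes in 6 comparisons) was recomputed in 17 alternative settings. Of these values 812 kept direction and side of the threshold, 42 gained a call, 38 lost one and 26 changed sign, none of the last with a call. In native lamina against nuclear RNA, 1 gene (LUC7L) was called lower, in place of 0, with at least 10 counts in every library, with only the 4 libraries compared, with the Wald test of DESeq2 and with the replicate block. In PFA against native lamina, 2 genes were called lower with no filter and 3 by DESeq2. Leaving out 1 library gave 4 to 8 genes called higher in nuclear against cytosolic RNA, 1 to 7 in native lamina against cytosolic and 0 to 1 in PFA lamina against cytosolic, and 0 to 1 called lower in native lamina against nuclear, 0 to 6 in PFA lamina against nuclear and 0 to 3 in PFA against native lamina. The cause of these moves was not tested, and where an arm keeps 1 library that library is assumed to vary like the other groups. Over all genes, with all libraries kept, the calls higher and lower ran from 2921 to 5248 and 2519 to 4150 (4314 and 3497 as reported) in nuclear against cytosolic, 412 to 2013 and 237 to 2355 (639 and 568) in native lamina against nuclear, 1120 to 1851 and 581 to 1758 (1154 and 1117) in native lamina against cytosolic, 355 to 2024 and 249 to 2002 (1589 and 1289) in PFA lamina against nuclear, 34 to 988 and 14 to 538 (87 and 24) in PFA lamina against cytosolic, and 0 to 123 and 0 to 181 (0 and 0) in PFA against native lamina. With 1 library left out these ran, in the same order, from 2425 to 5317 and 1648 to 4270, 1 to 1666 and 9 to 2180, 49 to 2280 and 84 to 2077, 1 to 2737 and 12 to 3248, 0 to 1703 and 0 to 1166, and 0 to 309 and 0 to 433.

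Signs changed with total counts in native lamina against nuclear for PNISR (0.15) and NKTR (0.15), and for CLK3 in native lamina against cytosolic (0.12) and PFA lamina against nuclear (0.17). In native lamina against nuclear CLK3 was also at -0.06 with upper-quartile factors and at -0.02 with at least 10 counts. With 1 library left out, the differences that changed sign had these ranges. In nuclear against cytosolic the range was CLK3 -0.65 to 0.11. In native lamina against nuclear the range was CLK1 -0.62 to 0.03, CLK2 -0.07 to 0.62, CLK3 -0.18 to 0.34, PNISR -0.58 to 0.21, NKTR -0.30 to 0.05. In native lamina against cytosolic the range was CLK3 -0.55 to 0.22. In PFA lamina against nuclear the range was CLK3 -0.38 to 0.27, OGT -1.46 to 0.01. In PFA lamina against cytosolic the range was CLK2 -0.53 to 0.55, CLK3 -0.69 to 0.08, OGT -0.35 to 1.07. In PFA lamina against native lamina the range was CLK1 -0.72 to 0.02, CLK3 -0.48 to 0.16, CLK4 -0.11 to 0.57.

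The replicate block gave 8 genes higher in nuclear against cytosolic RNA (CLK2 added, adjusted p = 0.0371), 7 in native lamina against cytosolic and 4 lower in PFA lamina against nuclear. Calls over all genes are given above only as ranges over the settings with all libraries kept, and not for the block alone. The calls added with the block are therefore not read as a trait of these genes. Replicate differences of the groups correlated at -0.0674 to 0.321, and 3 of the 6 pairs of groups were above 0.1. The largest were native with PFA lamina (0.321) and nuclear with cytosolic (0.28). These values do not decide whether the replicate numbers pair the libraries. The labels state no pairing, and the main fit used no block. Whether some were prepared together was not tested. With upper-quartile factors the median of all genes moved by 0.27 in nuclear against cytosolic RNA, and with total counts by 0.28 in native lamina against nuclear, where the share of higher calls went from 52.9% to 87.5% (38.7% with upper-quartile factors). That share went from 55.2% to 67.6% with upper-quartile factors in nuclear against cytosolic RNA, from 50.8% to 73.9% with total counts in native lamina against cytosolic, and from 55.2% to 78.7% with total counts and 42.3% with upper-quartile factors in PFA lamina against nuclear. Depth limits CLK4 most, with 25 to 96 counts a library.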
